A study of Homo sapiens with 8 samples.

Results

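The genes described here encode the nuclear end of canonical Wnt signalling: the 4 TCF/LEF transcription factors TCF7, TCF7L1, TCF7L2 and LEF1, the coactivators BCL9, BCL9L and PYGO2, and the Groucho-type corepressors TLE1, TLE3 and TLE4. They were chosen by name, with earlier results of these data known. Through their Ensembl identifiers, all 10 were found among the 58206 genes of the deposited count table. All 10 were among the 14289 genes with enough counts to be tested. RNA sequencing was done on Alexander1 cells (ATCC CRL-8024), an established epithelial line from a human hepatocellular carcinoma. The parental group, labelled wt (Axin1 -), consists of 4 libraries of the line itself, whose own Axin1 lacks the stretch that binds the kinase GSK3, so that the pathway is described as always active. The other group consists of 4 libraries labelled Axin1+, from a stable derivative made by retroviral transfer of Addgene plasmid #24928 and clonal selection in hygromycin B. The treatment notes name this transfer for the parental libraries as well, while the genotype label names the plasmid for the Axin1+ libraries only. The labels do not say how many clones were used. They also do not say whether the 4 libraries of a group came from separate cultures, so p-values measure the spread between these libraries only.

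In cells with an active Wnt pathway, beta-catenin enters the nucleus and binds TCF/LEF proteins that already sit on DNA. BCL9 or BCL9L links beta-catenin to a Pygopus protein, PYGO1 or PYGO2, which reads histone methylation. Without beta-catenin, TCF/LEF proteins are held by TLE corepressors, which recruit histone deacetylases. LEF1 and TCF7 are themselves classical targets of the pathway, whereas TCF7L1 is known mainly as a repressor and TCF7L2 as the widespread factor of epithelia, liver included.

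Library totals were 11232951 to 15263761 counts in the parental group and 12372436 to 26400782 in the group labelled Axin1+, and the members were covered by 15 to 8038 counts per library. AXIN1 mRNA was not higher in the libraries labelled Axin1+, at 37.7 to 48.2 CPM (counts scaled to library size) against 47.4 to 55.3 CPM (log2 fold change -0.21, edgeR adjusted p = 0.267, and 0.2304 to 0.554 over the alternatives), so directions rest on the labels. Parental replicate 1 and Axin1+ replicate 1 stood apart from the other libraries of their groups in a principal component analysis, and results that rest on them are also given without both. All 10 hepatocyte markers were tested, and they summed to 23591 to 27490 CPM in the parental and 18225 to 21774 CPM in the Axin1+ libraries, mostly from SERPINA1 (means of 16130 and 10358 CPM). Single markers varied, with TTR at 1.42 to 5.35 CPM in the parental libraries and ALB at 13.8 CPM in Axin1+ replicate 1 against 445 to 681 CPM in the other Axin1+ libraries, and 2 of the 10 were called higher and 2 lower. The 4 epithelial markers summed to 4147 to 5138 CPM and 3464 to 5089 CPM, with EPCAM below 1 CPM throughout. All 10 T cell and leukocyte markers stayed below 1 CPM in every library and summed to at most 1.07 CPM, with CD3E at 0 throughout. They were looked up because LEF1 and TCF7 are also strongly expressed in lymphocytes. Of the 7 fibroblast and stellate cell markers, 5 stayed below 1 CPM in every library, and their sum was 2.71 to 3.22 CPM in the parental and 1.23 to 4.63 CPM in the Axin1+ libraries. Of the 5 endothelial markers, 4 stayed below 1 CPM in every library, with TEK at 0, and the sum of 4.58 to 6.77 CPM against 34.1 to 58.5 CPM was carried by PECAM1. The part of these marker differences in the results below was not tested.

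Among the 10 genes, LEF1 alone passed the test, and it was lower in the libraries labelled Axin1+. With p-values from the quasi-likelihood test of edgeR, adjusted by Benjamini-Hochberg over all genes tested and called under 0.05, 1 of 10 members passed, against 19.2% of all genes tested, and for lower calls alone the background was 8.77%. No member was called higher, against 10.4% of all genes; at an unadjusted p under 0.05, 2 members were lower and 0 higher, where 33.5% of all genes passed in either direction. DESeq2 called 2 members lower and 0 higher, and limma-voom 1 lower and 0 higher. The median log2 fold change of the members was 0.03, with 5 above and 5 below 0, and that of all genes was 0.003. In none of the 10 genes were the CPM values of the groups fully separated, which was the case for 23.9% of all genes tested. The share of members called in either direction was thus not above that of all genes. For lower calls alone, 1 of 10 was near the background of 8.77%. What follows concerns single genes and their proportions. With libraries scaled by total counts alone, 1724 of all genes were higher and 868 lower, against 1485 and 1253 here, and LEF1 was still the 1 member called.

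**Figure D1:**
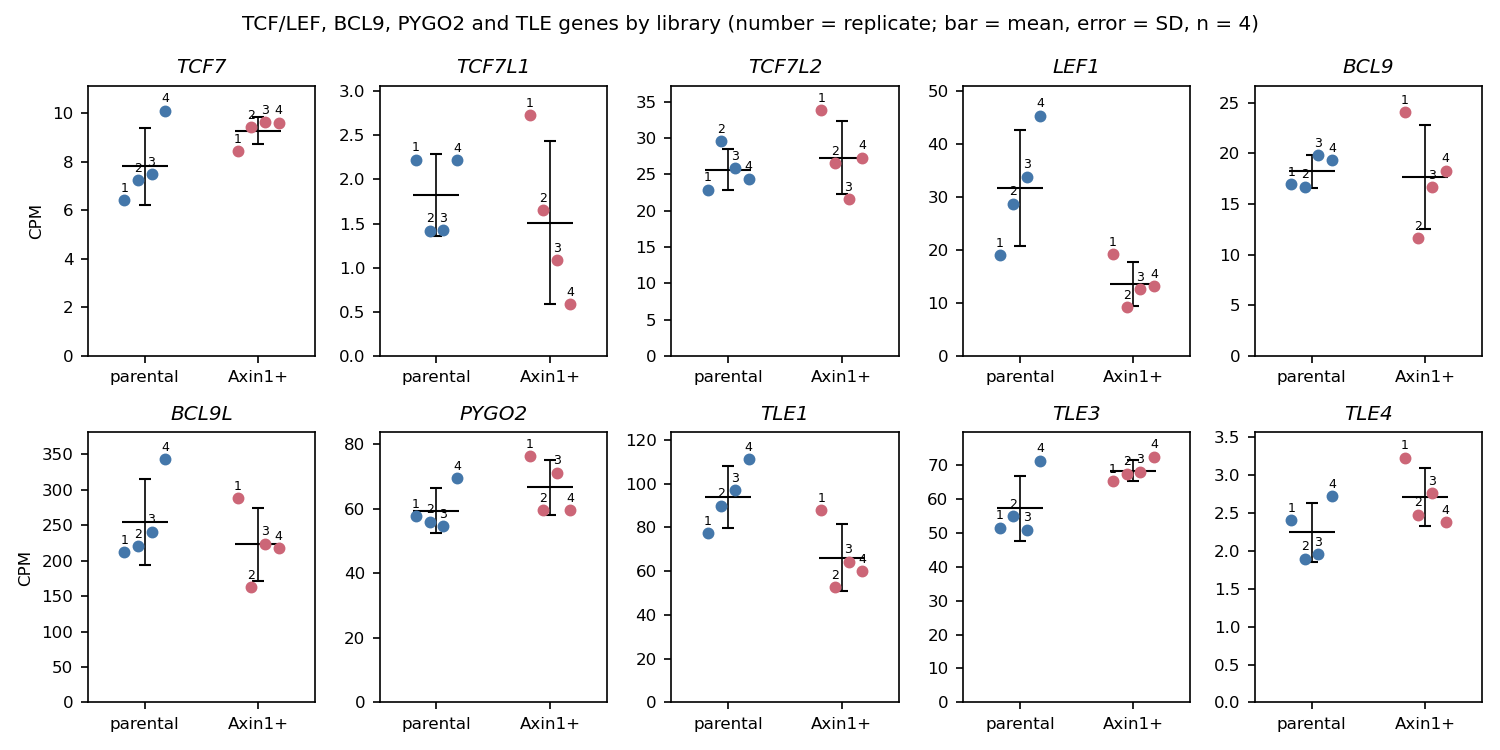
Library-scaled counts (CPM, y axis, starting at 0) of each of the 10 genes in the 4 parental libraries (blue) and the 4 libraries labelled Axin1+ (red), numbered by replicate, with the mean and SD of each group. LEF1 is the gene with the clearest shift, from 31.7 to 13.5 CPM on average, with parental replicate 1 and Axin1+ replicate 1 at nearly the same level.

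LEF1 (ENSG00000138795, chromosome 4, 108047545 to 108168956 of GRCh38, minus strand) was present in the 4 parental replicates, in order, at 19.0, 28.7, 33.8 and 45.3 CPM. The 4 Axin1+ replicates had 19.1, 9.16, 12.6 and 13.2 CPM. The highest Axin1+ value thus just exceeded the lowest parental value, while the other 3 Axin1+ libraries lay below every parental one. The means were 31.7 CPM ± 10.96 and 13.5 CPM ± 4.13 (SD, n = 4 each), 2.33-fold lower in the Axin1+ libraries (log2 fold change -1.22, SE 0.28, 95% confidence interval -1.83 to -0.61, edgeR adjusted p = 0.0127). The call held in all 18 alternative analyses, with adjusted p between 4.98e-05 and 0.0440. Without parental replicate 1 and Axin1+ replicate 1 the log2 fold change was -1.61. In bulk RNA, fewer cells with a transcript and less of it per cell cannot be told apart.

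The antisense gene LEF1-AS1 shares 279 exonic bases with LEF1 on the opposite strand. It was too low to be tested, with 5 to 15 counts per library in the parental and 3 to 7 in the Axin1+ group, beside 111 to 633 counts of LEF1. Scaled to library size, LEF1-AS1 had 0.445 to 1.07 CPM in the parental and 0.117 to 0.330 CPM in the Axin1+ libraries, without overlap. Such a separation was seen for 23.9% of all genes tested. The use of strand in counting is not given, and whether some of these counts came from LEF1 reads was not tested. The 40 tested genes next to LEF1 on the chromosome (20 on each side) had a median log2 fold change of 0.14, with 1 called lower and 4 higher. Among all genes tested, 8.77% were called lower and 10.4% higher. The tested genes whose profile over the 8 libraries was nearest to that of LEF1 were SYPL2, TPST1 and the pseudogene AK4P1, with root-mean-square differences of 0.11, 0.18 and 0.19 in centred log2 CPM.

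TCF7L2 (ENSG00000148737, chromosome 10, 112950250 to 113167678, plus strand) stood at 22.9, 29.5, 25.8 and 24.4 CPM in the parental libraries and at 33.8, 26.5, 21.6 and 27.3 CPM in the Axin1+ ones. The groups overlapped, and the Axin1+ libraries held both the highest and the lowest value. The log2 difference of 0.09 did not pass the test (SE 0.16, 95% confidence interval -0.26 to 0.44, edgeR adjusted p = 0.731), and this interval does not reach a change of the size seen for LEF1. Without Axin1+ replicate 1 the estimate turned to -0.03.

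TCF7 (ENSG00000081059, chromosome 5, 134114711 to 134151865, plus strand) had 6.41, 7.24, 7.48 and 10.1 CPM in the parental and 8.43, 9.41, 9.61 and 9.60 CPM in the Axin1+ libraries. All Axin1+ values fell between those of parental replicates 3 and 4. On the log2 scale the difference was 0.24 (SE 0.19, 95% confidence interval -0.16 to 0.65, edgeR adjusted p = 0.387). Of the 40 tested genes around TCF7, 27 were called higher and 0 lower in the Axin1+ libraries, with a median log2 fold change of 0.72. Among all genes tested, 10.4% were called higher and 8.77% lower. SKP1, a ubiquitin ligase subunit gene on the opposite strand that shares 210 exonic bases with TCF7, was higher, with 69.0 CPM ± 12.0 in the parental and 135 CPM ± 16.1 in the Axin1+ libraries (SD, n = 4 each; edgeR adjusted p = 0.0017). The part of either in the TCF7 value was not tested.

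TCF7L1 (ENSG00000152284, chromosome 2, 85133410 to 85310388, plus strand) was the scarcest of the 4 factors, at 1.42 to 2.22 CPM in the parental libraries. In the Axin1+ libraries it spread from 0.586 CPM in replicate 4, on 15 counts, to 2.73 CPM in replicate 1, on 76 counts. With this spread the interval of its log2 fold change ran from -1.23 to 0.70 (estimate -0.26, edgeR adjusted p = 0.709), which just includes a change as large as that of LEF1. The estimate was 0.02 without Axin1+ replicate 4.

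Levels of different genes can be compared only per length, so CPM were divided by the kilobases of annotated exon (RPKM). In the parental libraries LEF1 was the most abundant TCF/LEF transcript, at 5.91 RPKM ± 2.05, followed by TCF7L2 at 3.81 ± 0.422, TCF7 at 0.776 ± 0.158 and TCF7L1 at 0.413 ± 0.104 (SD, n = 4 each). The values of LEF1 and TCF7L2 overlapped over the parental libraries, and those of TCF7L2 and TCF7, and of TCF7 and TCF7L1, did not. In the Axin1+ libraries TCF7L2 came first, at 4.05 RPKM ± 0.744, ahead of LEF1 at 2.52 ± 0.771, TCF7 at 0.921 ± 0.0560 and TCF7L1 at 0.342 ± 0.208, and here too the values of TCF7L2 and LEF1 overlapped. The order of the 4 group means was the same when the longest annotated transcript was used as the length. The summed level of the 4 genes was 10.9 RPKM ± 2.26 in the parental and 7.84 RPKM ± 1.51 in the Axin1+ libraries, and these sums overlapped between the groups.

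Proportions within a library do not depend on how libraries are scaled to each other. LEF1 made up 43.8%, 49.7%, 56.2% and 62.2% of the summed TCF/LEF level in parental replicates 1 to 4 and 35.5%, 24.6%, 34.8% and 32.3% in Axin1+ replicates 1 to 4. Every parental library thus had a larger LEF1 share than every Axin1+ library. TCF7L2 went the other way, from 42.1%, 40.7%, 34.2% and 26.7% to 49.97%, 56.6%, 47.4% and 53.4%, again without overlap. Shares within a library add up to the whole, so a lower LEF1 share by itself raises those of the other genes. In CPM, TCF7L2 overlapped between the groups, as given above. The share of TCF7 was 7.15% ± 0.601 and 12.1% ± 2.60, also without overlap (SD, n = 4 each). That of TCF7L1 was 3.95% ± 1.57 and 4.23% ± 1.96, with overlap. With the longest annotated transcript as the length, LEF1 held 51.2% in the parental and 30.2% in the Axin1+ libraries. By that length TCF7 held 8.44% and 14.0%. The ratio of LEF1 to TCF7L2 per length was 1.04 to 2.33 in the parental and 0.434 to 0.734 in the Axin1+ libraries. Of all tested genes, 15.4% had a ratio to TCF7L2 that did not overlap between the groups, so such a separation is not rare here.

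**Figure D2:**
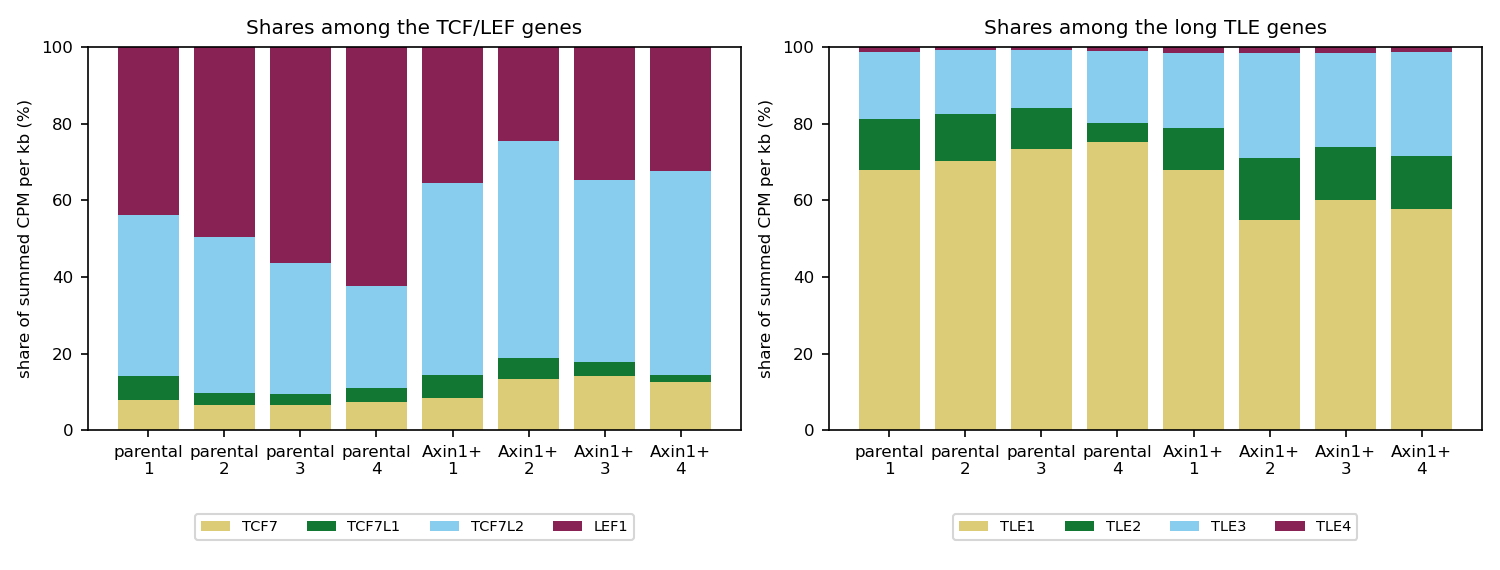
Share of each gene in the summed level per kilobase (y axis, percent) of the TCF/LEF genes (left) and of TLE1 to TLE4 (right), as stacked bars for each library. The LEF1 share is 43.8% to 62.2% in the parental bars and 24.6% to 35.5% in the Axin1+ bars, and TLE3 takes 15.0% to 18.7% and 19.5% to 27.3%.

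Gene-level counts do not separate transcript forms, and both LEF1 and TCF7 are known to give shorter forms that lack the part binding beta-catenin. TCF/LEF proteins recognise DNA around the letters CTTTG, most often followed by AA or AT, and this was looked up in RefSeq promoter windows (GRCh38.p14, 250 bases before to 50 after a start site), which matched 9 of the 10 genes with 15 windows. On either strand, CTTTGAA was in 4.44% and CTTTGAT in 2.63% of all 34943 windows, and CTTTG, which both of these contain, in 47.5%. Among the 15 windows of the members, 8 held CTTTG and 1 held a longer form, in a window of TLE4. The LEF1 window belongs to an internal start site and held only the short core, on the opposite strand. Both sites are shown for the gene that changed and for the longer match, 5′ to 3′ along the gene, with the matching letters in capitals.
LEF1, chr4:108166411-108166435, minus strand: cttttccctcCAAAGaaacttggag
TLE4, chr9:79573053-79573079, plus strand: ttattgttgtCTTTGAAgcccctggaa
These are matches of letters in short windows and say nothing of binding in these cells.

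The coactivator genes were expressed at levels that did not differ detectably between the labels. BCL9L (ENSG00000186174, chromosome 11, 118893875 to 118925608, minus strand), one of the adaptors between beta-catenin and Pygopus, had the highest mean level per length of the 10 genes in both groups, although its values overlapped those of the next gene. It was at 212, 221, 241 and 343 CPM in the parental and 288, 162, 224 and 218 CPM in the Axin1+ libraries. The groups overlapped, with the highest value in parental replicate 4 and the lowest in Axin1+ replicate 2 (log2 fold change -0.19, SE 0.20, 95% confidence interval -0.63 to 0.25, edgeR adjusted p = 0.545). Without both replicates numbered 1 the log2 fold change of BCL9L was -0.41 (edgeR adjusted p = 0.0900). Without parental replicate 4 it was -0.008. Its paralog BCL9 (ENSG00000116128, chromosome 1, 147541412 to 147626216, plus strand) was scarcer, at 16.7 to 19.9 CPM and 11.6 to 24.1 CPM, with a log2 fold change of -0.04 (95% confidence interval -0.49 to 0.41). Per length, BCL9L exceeded BCL9 in every library, by 7.29 to 10.9 times, and the 2 groups overlapped in this ratio. BCL9L shares 3925 exonic bases with CXCR5 on the opposite strand, and CXCR5 held at most 15 counts in any library.

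PYGO2 (ENSG00000163348, chromosome 1, 154957026 to 154963853, minus strand), the Pygopus gene of most tissues, was at 57.7, 56.1, 54.7 and 69.6 CPM in the parental and 76.3, 59.6, 71.3 and 59.6 CPM in the Axin1+ libraries. Axin1+ replicates 1 and 3 lay above all parental values and the other 2 inside their range (log2 fold change 0.16, SE 0.13, 95% confidence interval -0.13 to 0.46, edgeR adjusted p = 0.413). It shares 335 exonic bases with the neighbouring SHC1 on the same strand, so that some reads could be assigned to either gene. Its paralog PYGO1, not among the 10, was far lower but rose, from 0.356, 0.880, 2.32 and 1.15 CPM to 3.16, 3.05, 4.73 and 6.13 CPM, without overlap (log2 fold change 1.87, edgeR adjusted p = 0.0170). That call was lost without parental replicate 2, Axin1+ replicate 3 or Axin1+ replicate 4, with adjusted p of 0.0599, 0.0501 and 0.0619. Per length, PYGO1 stayed at or below 0.0434 of the PYGO2 level in every library.

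Of the corepressors, TLE1 (ENSG00000196781, chromosome 9, 81583683 to 81689305, minus strand) was the most abundant of TLE1 to TLE4 per length in every library. Parental replicates 1 to 4 held 77.5, 90.0, 97.1 and 111 CPM, and Axin1+ replicates 1 to 4 held 88.03, 52.6, 64.4 and 60.0 CPM. The last 3 Axin1+ libraries lay below all parental ones, and Axin1+ replicate 1 lay inside their range. The change of -0.50 on the log2 scale (SE 0.17, 95% confidence interval -0.88 to -0.12) did not pass the threshold over all genes (edgeR adjusted p = 0.0635). It passed with DESeq2 (adjusted p = 0.0314), without parental replicate 1 (edgeR adjusted p = 0.0242), without Axin1+ replicate 1 (0.0115) and without both (log2 fold change -0.75, edgeR adjusted p = 0.00084), and in the other 14 alternatives it did not. The 40 tested genes around TLE1 had a median log2 fold change of 0.13.

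TLE3 (ENSG00000140332, chromosome 15, 70047790 to 70098176, minus strand) was at 51.5, 55.0, 51.0 and 71.2 CPM in the parental and 65.1, 67.4, 68.0 and 72.4 CPM in the Axin1+ libraries. Parental replicate 4 was the one parental library inside the range of the Axin1+ ones. The difference was 0.25 on the log2 scale (SE 0.13, 95% confidence interval -0.03 to 0.54, edgeR adjusted p = 0.200). TLE4 (ENSG00000106829, chromosome 9, 79571773 to 79726882, plus strand) shared the lowest level per length with TCF7L1, at 1.90 to 2.72 CPM and 2.38 to 3.23 CPM, with a log2 fold change of 0.28 (95% confidence interval -0.27 to 0.82).

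Within the summed level of TLE1 to TLE4, TLE1 held 71.7% ± 3.27 in the parental and 60.2% ± 5.61 in the Axin1+ libraries, and TLE3 held 17.0% ± 1.57 and 24.7% ± 3.63 (SD, n = 4 each). The TLE3 shares were separated, at 15.0% to 18.7% against 19.5% to 27.3%, while those of TLE1 overlapped through Axin1+ replicate 1. The TLE4 shares were separated too, at 0.885% to 1.26% against 1.38% to 1.55%. The mean shares depended on the length used. With the longest annotated transcript, TLE1 held 67.0% in the parental and 54.8% in the Axin1+ libraries. By that length TLE3 held 20.3% and 28.7%, and TLE4 1.29% and 1.81%. These shares also add up to the whole, so a lower TLE1 share by itself raises the others. In CPM, TLE3 and TLE4 overlapped between the groups. The ratio of TLE3 to TLE1 was 0.204 to 0.258 in the parental and 0.287 to 0.498 in the Axin1+ libraries, where 28.2% of all tested genes had a ratio to TLE1 that separated the groups. The other members of the family did not pass the test: TLE2, a further full-length corepressor, had a log2 fold change of 0.16, TLE5, a short form that lacks the repeats binding other proteins, 0.08, and TLE6 0.08, with edgeR adjusted p of 0.644, 0.789 and 0.831. TLE5 was the most abundant TLE gene, at 69.9 RPKM ± 17.4 in the parental and 73.8 RPKM ± 10.5 in the Axin1+ libraries (SD, n = 4 each), above the 19.2 and 13.5 RPKM of TLE1.

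**Figure D3:**
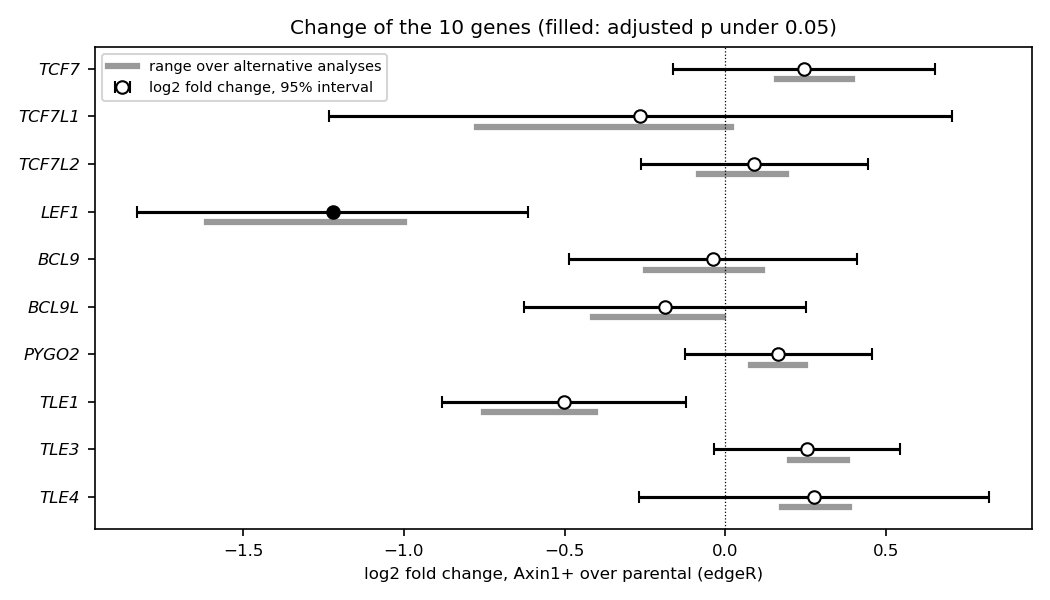
Log2 fold change of each of the 10 genes (x axis, Axin1+ over parental) with its 95% confidence interval in black, filled where the adjusted p was under 0.05, and the range over the alternative analyses in grey. Only LEF1 is filled, at -1.22, with alternatives from -1.61 to -0.999, and TLE1 follows at -0.50.

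CTNNB1, which encodes beta-catenin itself, did not pass the test but was higher on average in the Axin1+ libraries. The parental libraries had 96.8, 167, 215 and 221 CPM, and the Axin1+ libraries had 340, 177, 291 and 321 CPM. Axin1+ replicate 2 lay inside the parental range and the other 3 above it (log2 fold change 0.69, SE 0.27, edgeR adjusted p = 0.0927). It passed without an expression filter (adjusted p = 0.0079) and without Axin1+ replicate 2 (0.0433). In the other 16 alternatives it did not pass. Without both replicates numbered 1 the log2 fold change of CTNNB1 was 0.39 (edgeR adjusted p = 0.138). Without parental replicate 1 alone it was 0.49. Parental replicate 1 was the lowest parental library for both CTNNB1 and LEF1, and in the ratio of LEF1 to CTNNB1 per length, which was chosen after its values were seen, the groups did not overlap, at 0.349 to 0.456 in the parental and 0.0911 to 0.125 in the Axin1+ libraries. Of all tested genes, 22.1% had a ratio to CTNNB1 that separated the groups.

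Other modulators of beta-catenin and TCF formed a list of 24 genes, of which 21 were tested, and 4 rose and 1 fell, or 23.8% called against 19.2% of all genes. Their median log2 fold change was 0.08. NLK, a kinase that phosphorylates TCF/LEF proteins, rose, its mean going from 8.81 CPM ± 0.765 to 18.7 CPM ± 2.44 (SD, n = 4 per group; log2 fold change 1.09, edgeR adjusted p = 0.0012), and all 4 Axin1+ libraries lay above all parental ones. RUNX1, a transcription factor gene, rose from 3.17 CPM ± 0.207 to 10.8 CPM ± 3.56 (log2 fold change 1.76, edgeR adjusted p = 0.0017), lowest among the Axin1+ libraries in replicate 1 at 5.92 CPM. CTNNBIP1 encodes ICAT, an inhibitor that keeps beta-catenin from TCF. It fell from 20.6, 22.5, 25.4 and 23.5 CPM to 11.5, 12.7, 14.9 and 12.7 CPM (log2 fold change -0.83, SE 0.14, edgeR adjusted p = 0.0033). The calls for NLK, RUNX1 and CTNNBIP1 held in all 18 alternatives. PYGO1, described above, and HIC1, a repressor gene named after its values were seen, were the other 2 genes that rose (HIC1 log2 fold change 1.17, edgeR adjusted p = 0.0293).

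**Figure D4:**
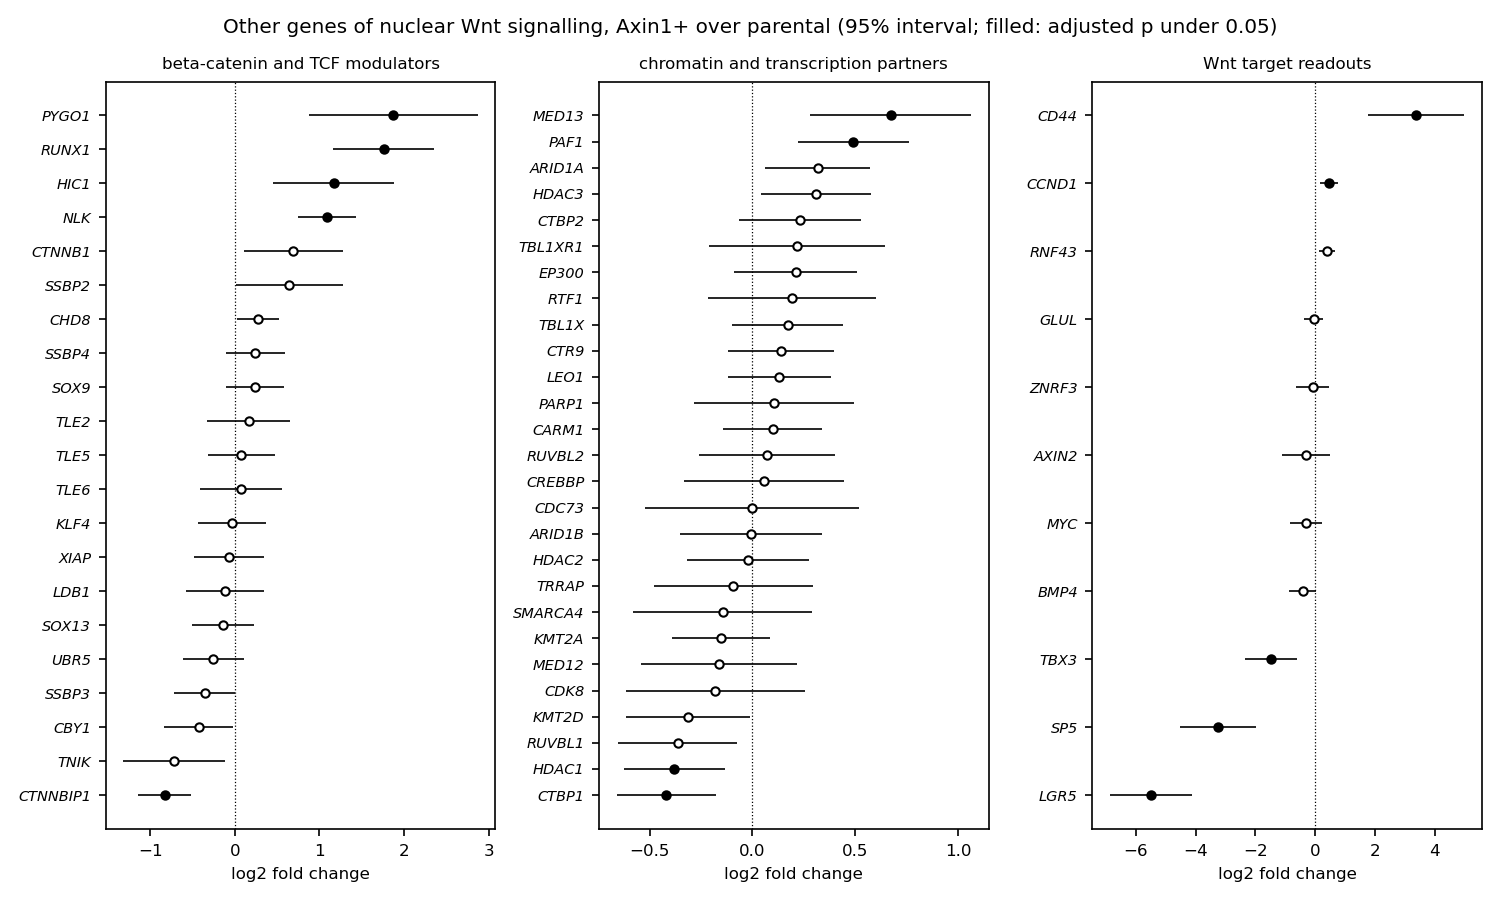
Log2 fold change (x axis, Axin1+ over parental, each panel with its own scale) and 95% confidence interval of the tested genes in 3 lists, filled where the adjusted p was under 0.05. In the first list 5 of 21 genes are filled, in the second 4 of 27 and in the third 5 of 11.

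Chromatin and transcription partners formed a list of 27 genes, all tested, of which 2 rose and 2 fell, or 14.8% called against 19.2% of all genes, with a median log2 fold change of 0.07. The genes that rose were PAF1, a subunit of an elongation complex that binds beta-catenin (97.5 CPM ± 12.8 to 137 CPM ± 9.29, log2 fold change 0.49, edgeR adjusted p = 0.0196), and MED13 of the Mediator kinase module (17.8 CPM ± 3.20 to 28.4 CPM ± 4.69, log2 fold change 0.67). The genes that fell were HDAC1 and CTBP1. HDAC1, a histone deacetylase recruited by TLE proteins, was at 210 to 236 CPM in the parental and 160 to 190 CPM in the Axin1+ libraries (log2 fold change -0.38, edgeR adjusted p = 0.0358), and the corepressor CTBP1 at 217 to 245 CPM and 161 to 186 CPM (log2 fold change -0.42, edgeR adjusted p = 0.0228). These 4 calls depended on the analysis. That of HDAC1 was lost in 9 of 18 alternatives (adjusted p up to 0.158), including the removal of any library except the 2 numbered 1, and that of CTBP1 in 7 (up to 0.0988), including the removal of parental replicate 2 or 4 or Axin1+ replicate 3 or 4. Those of PAF1 (without parental replicate 2, parental replicate 3 or Axin1+ replicate 2) and MED13 (without parental replicate 2 or Axin1+ replicate 4, and with a replicate block) were lost in 3 each, with adjusted p up to 0.0671 and 0.0777.

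Target readouts of the pathway formed a list of 16 genes, of which 11 were tested. The list was compiled with earlier results of these data known, so neither its direction nor its share called is independent evidence. Of the 11, 2 rose and 3 fell. That was 5 of 11 or 45.5% called, against 19.2% of all genes, with a median log2 fold change of -0.31. LEF1 thus changed in the same direction as LGR5 (log2 fold change -5.49), SP5 (-3.27) and TBX3 (-1.47), and against CD44 (3.38, on 2 to 9 parental counts) and CCND1 (0.47), the last named after its values were seen. The 6 tested readouts not called were AXIN2 (-0.31), RNF43 (0.39), ZNRF3 (-0.09), GLUL (-0.05), MYC (-0.32) and BMP4 (-0.42), also named with values seen. Their edgeR adjusted p ran from 0.0546 for RNF43, whose CPM values did not overlap between the groups, to 0.847 for GLUL. LGR5 and SP5 rested on 0 to 18 and 0 to 9 counts per Axin1+ library. The log2 fold change of LGR5 was -6.54 without Axin1+ replicate 1 and -6.80 without both replicates numbered 1, and that of SP5 was -3.94 without both. That of CD44 was 2.48 without Axin1+ replicate 1, which had 8.43 CPM against 1.13 to 2.56 CPM in the other Axin1+ libraries, 4.12 without parental replicate 1 and 3.20 without both. All 3 calls held in these fits. Of the genes that changed, TBX3 resembled LEF1 in having its lowest parental value in replicate 1 (20.8 CPM against 68.3 to 91.1 CPM) and its highest Axin1+ value in replicate 1 (35.0 CPM against 14.3 to 22.9 CPM). Its call was lost in 7 of 18 alternatives, namely the replicate block and the removal of any library except the 2 numbered 1, with adjusted p up to 0.0846, and without both of these libraries its log2 fold change was -2.04.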

How the data were processed

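The 8 columns of the deposited table hold raw counts per gene, as the whole numbers and differing totals show, with 0 columns belonging to no sample. The submitters' processing notes name bcl2fastq, fastp 0.23.1, STAR 2.7.4 and build GRCh38; the counting program, annotation and use of strand are not given in the sources used here. Identifiers were matched to GENCODE 29 on GRCh38 (57943 of 58206) and to a symbol table (57495). Counts were analysed with edgeR 4.0.16 in R 4.3.3: filterByExpr (minimum count 10, minimum total 15), TMM scaling, quasi-likelihood test over 14289 genes, no covariates, Benjamini-Hochberg adjustment, threshold 0.05. Each SE was derived from the estimate and its F statistic. Profile distances used log2 CPM with a prior count of 2. DESeq2 1.42.0 and limma 3.58.1 were alternatives, beside total-count scaling, other filters, equal depth, a replicate block and leaving libraries out. The tests were also run on counts simulated from the fitted means and spreads, which cannot show whether that model suits these libraries. No pair of libraries in a group agreed within counting noise. The 10 genes and the lists were chosen with earlier results of these data known. Named are all 10, AXIN1, CTNNB1, TLE2, TLE5, TLE6, PYGO1, up to 4 genes with the smallest p per list, and the 3 nearest profiles of each called member. HIC1, CCND1, the target readouts not called, the overlapping genes and the markers fall outside this rule and were named with their values known.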

Additional observations from a re-analysis of the deposited data

Results flagged for a closer look

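In groups of 4 libraries, 1 library was set far apart from the other 3 (its gap to the nearest exceeded the 95% critical value of Dixon's test) in 5 of the 70 groups examined, where chance gives about 1 in 20. Among the members this was TCF7, with 8.43 CPM in Axin1+ replicate 1 against 9.41 to 9.61 CPM in the other Axin1+ libraries. AXIN1 was at 37.7 CPM in Axin1+ replicate 4 against 47.6 to 48.2 CPM. NLK reached 22.4 CPM in Axin1+ replicate 4 against 17.4 to 17.7 CPM, and PAF1 reached 151 CPM in Axin1+ replicate 2 against 131 to 133 CPM. MED13 was at 13.1 CPM in parental replicate 1 against 18.8 to 19.8 CPM in the other parental libraries.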

How the results depend on the processing

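LEF1 kept its direction and its call in all 18 alternatives. The number of members called was 2 with DESeq2 and without parental replicate 1 and Axin1+ replicate 1 together, and 1 to 2 with 1 library left out, the added gene being TLE1. The corresponding number of all genes was 1394 to 3523 with 1 library left out (1394 without Axin1+ replicate 4, 1508 without parental replicate 2, 1531 without Axin1+ replicate 3) and 4623 without both replicates numbered 1, an alternative chosen after seeing the data. Among the other nuclear Wnt genes 14 were called, 7 to 18 with 1 library left out (7 without parental replicate 2, 8 without Axin1+ replicate 4 and 9 without parental replicate 3, parental replicate 4 or Axin1+ replicate 3) and 22 without both replicates numbered 1. With the replicate number as a block 9 of them were called, and 2033 of all genes. Whether the numbers pair the libraries is not stated in the labels. Deviations of same-numbered libraries correlated between -0.06 and 0.23, and those of differently numbered libraries between -0.425 and 0.448. With 4 libraries per group, these correlations cannot decide the question. With total counts only, 1724 genes were higher and 868 lower, against 1485 and 1253. AXIN1 ranged from -0.26 to -0.13. Among genes that were not called, estimates near 0 changed sign: BCL9 was 0.0495 with total counts only, -0.25 without both replicates numbered 1 and -0.22 to 0.11 with 1 library left out. TCF7L2 was -0.0815 without both replicates numbered 1 and -0.0324 to 0.19 with 1 library left out, TCF7L1 -0.77 to 0.0166, TLE2 -0.0340 to 0.27, TLE5 -0.00296 to 0.26 (0.31 without both) and TLE6 -0.12 to 0.21 (0.24 without both). The cause was not tested. Depth limits the low genes, such as TCF7L1, TLE4 and PYGO1 with 4 to 157 counts per library and LGR5 and SP5 with as few as 0; intervals cover the spread of these libraries only.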
